A study of Mus musculus with 12 samples.

Results

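Hepatocytes and macrophages from the livers of untreated mice were compared across all genes, as a description of the identity of the 2 cell types in the absence of treatment. The 4 arrays compared, 2 of hepatocytes and 2 of liver macrophages, were chosen by their labels as the untreated arrays of these cell types, out of 12 arrays in the series. The whole series set cells of mice given diethylnitrosamine (DEN), a liver carcinogen that hepatocytes activate, against untreated counterparts, in hepatocytes, macrophages and sinusoidal endothelial cells (SEC), the lining of the liver capillaries. Each of its 6 groups held 2 arrays. The mice behind both groups compared here were male, of the strain C57Bl/6 and untreated, and served as age-matched controls to mice injected with 25 mg/kg DEN at postnatal day 25 and kept for 9 months. The array labels also carry the tag WT for every group, and no transgene or deleted allele is named. The series design states that RNA was pooled from 3 to 4 DEN-treated mice per cell type. No label says whether the 2 arrays of an untreated group came from separate pools of mice. Every p-value below rests on the spread within all 6 groups of the series, DEN and SEC arrays included. It reflects no more than that spread, part or all of which may be technical. The method of cell isolation was not found in the sources used here.

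Hepatocytes are the epithelial cells that make up most of the liver, and they secrete most plasma proteins, make bile acids, detoxify drugs, dispose of ammonia as urea and release glucose in fasting. Kupffer cells are the macrophages that live in the liver sinusoids, where they take up particles, dying red cells and bacterial products from portal blood and present antigen. The identity of hepatocytes rests on transcription factors such as HNF4A, the FOXA family and C/EBP alpha, and that of macrophages on PU.1, encoded by Spi1, together with the receptor for the growth factor CSF1.

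RNA was measured on bead arrays of 45281 probes, as log2 values that the authors had scaled to one another, so that each array ran from 7.19 to 15.19 with a median of 7.41. No difference can therefore exceed the distance between this floor and this ceiling. The ceiling limits the folds of Apoc3, Hpx and Vsig4, each of which reached it on 1 array of a group. A probe counted as above background where it exceeded the 95th percentile of the signals of 1504 olfactory and vomeronasal receptor probes, which liver cells should lack, and which lay between 7.43 and 7.51 on the 4 arrays. By this measure 15990 and 16195 probes were above background on the hepatocyte arrays and 20364 and 20341 on the macrophage arrays. The number of arrays, 2 per group, limits the precision. Across genes, the 2 hepatocyte arrays correlated with r = 0.994 and the 2 macrophage arrays with r = 0.998, while a hepatocyte and a macrophage array correlated with r = 0.598. Genes are not independent replicates, and these correlations describe the arrays only. A gene was called higher in a cell type where the difference was at least 2-fold with an adjusted p under 0.05 in limma, adjusted over all 12473 genes tested.

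The 2 cell types differed over a large share of the measured genes. Hepatocytes had 1204 genes called higher, 9.65% of those tested, and macrophages had 1440, 11.5% of those tested. Without the 2-fold minimum 8029 genes passed, 64.4% of those tested, with 27.9% higher in hepatocytes and 36.5% in macrophages. The median difference of all genes, hepatocytes minus macrophages, was -0.04 on the log2 scale. In no called gene did the arrays of the groups overlap, where 82.2% of all tested genes had groups that did not overlap. The larger differences lay more often on the hepatocyte side: 77 genes were at least 32-fold higher in hepatocytes and 31 at least 32-fold higher in macrophages. Between 2-fold and 4-fold the order was the other way, with 584 genes higher in hepatocytes and 905 in macrophages. Of the genes higher in macrophages 336 lay below background on both hepatocyte arrays, and of those higher in hepatocytes 181 lay below background on both macrophage arrays. Where a gene had several probes above background, the brightest stood for it. Of 1290 called genes with several probes, 802 had another probe under 2-fold, and 7 had one at least 2-fold in the other direction (Kif23, Kdm7a, H2ac20, Ahnak, Plod3, Actb and Masp1). Of the genes named below, another probe was under 2-fold for Cyp2a5, Egfr, Glyat, Il1rap, Nr1i3, Nr2f6, Nr5a2, Pklr, Plg, Smpd1, Sox9 and Tbx3 on the hepatocyte side. On the macrophage side this held for Ccnd2, Cd163, Clec4g, Clec9a, Cyp4f18, Dcn, Ecm1, F8, Ikzf1, Il6ra, Klf4, Lpl, Masp1, Mcm6, Nr1h3, Pfkp, Reln, Robo4, Siglech, Sirpa, Tbxas1, Tgfbr2, Tlr4 and Zeb2.

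**Figure D1:**
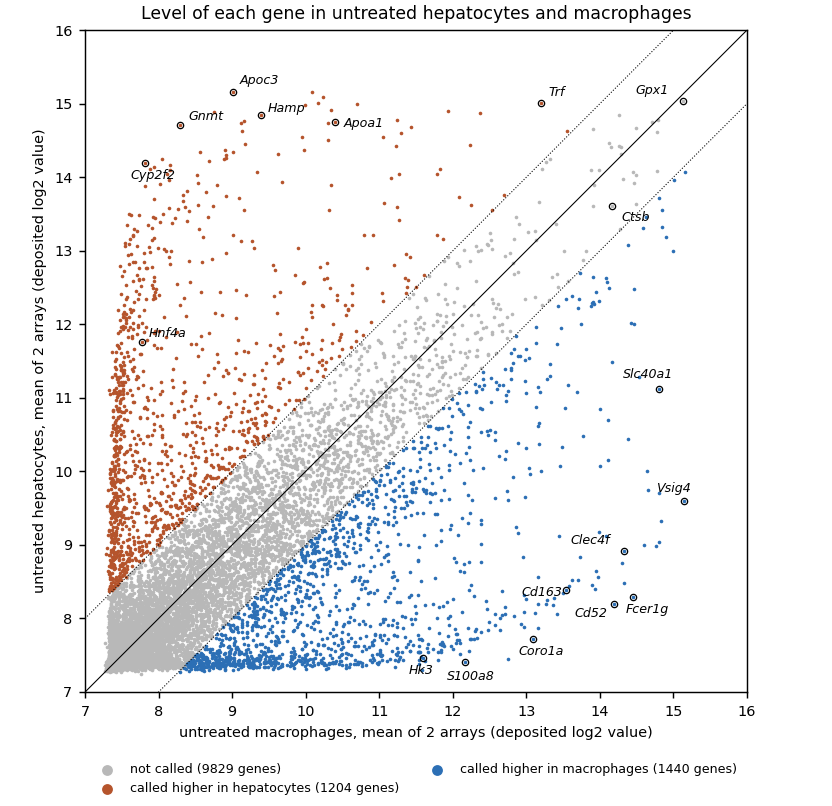
Each point is 1 of 12473 genes, placed by its mean deposited log2 value over the 2 macrophage arrays (horizontal) and the 2 hepatocyte arrays (vertical). The solid line marks equal values and the dotted lines 2-fold; 1204 genes called higher in hepatocytes and 1440 called higher in macrophages lie outside them, and named genes are circled.

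Glycine N-methyltransferase (Gnmt), which disposes of excess S-adenosylmethionine, had the largest difference among genes above background on all 4 arrays. Its values were 14.66 and 14.75 on the hepatocyte arrays and 8.37 and 8.20 on the macrophage arrays, a difference of 6.42 ± 0.07 (SE) or 85.8-fold (limma adjusted p = 7.09e-14). Next came Cyp2f2, a P450 of hepatocytes near the portal vein, at 14.05 and 14.33 against 7.79 and 7.83 in macrophages, 83.5-fold. Both hepatocyte arrays lay far above both macrophage arrays for each of these genes. Alcohol dehydrogenase (Adh1) was 75.1-fold higher, at 14.23 and 14 against 7.90 and 7.87. Urate oxidase (Uox), which degrades uric acid in mice, stood at 13.88 and 13.87 against 7.82 and 7.81, a 66.6-fold difference. The other 11 of the 15 largest hepatocyte differences of this kind were Cyp2c70, Cyp2d9, Apoc3, Cyp2e1, Orm1, Arg1, Apoc4, Slc27a5, Acaa1b, Cps1 and Fah, down to 56.5-fold for Fah. They cover drug metabolism, lipoproteins, an acute phase protein, bile acid conjugation, fatty acid breakdown and the urea cycle.

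On the macrophage side the largest difference was that of Fcer1g, the signalling chain shared by several Fc receptors. It stood at 14.43 and 14.46 on the macrophage arrays and 8.28 and 8.31 on the hepatocyte arrays, a difference of -6.15 ± 0.05 (SE), 71.2-fold higher in macrophages (limma adjusted p = 3.78e-14). Cd52, a small surface glycoprotein of leukocytes, followed at 14.22 and 14.17 against 8.24 and 8.15 in hepatocytes, 64-fold. The CSF1 receptor (Csf1r), on which macrophage survival depends, was 57.6-fold higher in macrophages, at 14.37 and 14.28 against 8.47 and 8.48. All 4 arrays were above background for these 3 genes, and the groups lay about 6 log2 units apart in each. The other 12 of the 15 were the C1q chains C1qb and C1qc, the class II genes H2-Ab1 and H2-Eb1, Wfdc17, Vsig4, Laptm5, Adgre1, Clec4f, Sdc3, Coro1a and Ear3, down to 41-fold for Ear3, whose near-identical family members an array probe may not tell apart.

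Some genes were measured in 1 cell type alone, so that their difference is a lower bound. In hepatocytes the brightest of these were Cyp2a5, at least 18.3-fold higher, and Abcb11, the bile salt export pump, at least 18.3-fold higher. Abcb11 stood at 11.66 and 11.59 on the hepatocyte arrays, and its macrophage arrays read 7.35 and 7.38, below background. Cth, an enzyme of cysteine synthesis, was at least 17.1-fold higher in hepatocytes, and the water channel Aqp8 at least 15.8-fold. Cyp3a11, a P450 that metabolises many drugs, was at least 14.4-fold higher, although its hepatocyte arrays differed from each other, at 11.91 and 10.66. Its log2 difference was 3.92, 4.55 without hepatocyte array 2 and 3.30 without hepatocyte array 1. In macrophages the brightest genes below background in hepatocytes were S100a8, at least 25.4-fold higher, and Ear10, at least 19.5-fold. P2ry13, a receptor for ADP, was at least 17.4-fold higher in macrophages, at 11.62 and 11.63, and the leukocyte GTPase Rac2 at least 13.6-fold. Within the 15 genes of this kind were also Trbv13-2, a T cell receptor gene segment, and Thy1, a surface protein of T cells, at least 16.9-fold and 13.1-fold higher.

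The labelled cell types were checked against marker genes. Every list count from here on is to be read beside the shares over all genes tested. These were 9.65% called higher in hepatocytes and 11.5% called higher in macrophages. Of 25 measured hepatocyte markers 23 were higher in hepatocytes and none in macrophages, with a median difference of 4.63 against -0.04 over all genes. The 2 not called were Fgb, with a difference of 0.41, and Tat, with 0.38. Apoa1, the main protein of high density lipoprotein, stood at 14.73 and 14.77 in hepatocytes and 10.41 and 10.38 in macrophages, 20.5-fold. Albumin (Alb) was called too, although its probe above background was dim, at 9.25 and 9.14 in hepatocytes and below background in macrophages, a difference of at least 3.40-fold. The summed linear signal of the list was 390437 and 397749 on the hepatocyte arrays, 18449 and 18500 on the macrophage arrays, and 9737 and 9801 on the untreated SEC arrays.

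Of 17 measured Kupffer cell markers 15 were higher in macrophages and none in hepatocytes, with a median difference of -4.35. Clec4f, a lectin made in the mouse by Kupffer cells, read 14.27 and 14.39 on the macrophage arrays and 8.96 and 8.88 on the hepatocyte arrays, 42.6-fold. Vsig4, the complement receptor of tissue macrophages, read 15.11 and 15.19 against 9.67 and 9.53, 46.9-fold. Adgre1, a surface protein used to recognise mouse macrophages, read 13.92 and 13.88 against 8.47 and 8.44, 43.4-fold, and Timd4, a receptor for dying cells, was 20.2-fold higher. The 2 Kupffer cell markers not called were Xcr1 and Slc15a2, with differences of -0.13 and -0.28. All 17 measured pan-macrophage markers were higher in macrophages, with a median difference of -4.80, among them the lysozyme gene Lyz2, 28.2-fold, and Tyrobp, an adaptor of activating receptors, 33.9-fold. The pan-macrophage list summed to 187550 and 189087 on the macrophage arrays against 6010 and 6178 on the hepatocyte arrays, beside 86781 and 87164 on the SEC arrays. The Kupffer cell list summed to 196303 and 196594 on the macrophage arrays, 10256 and 10617 on the hepatocyte arrays, and 110686 and 114231 on the SEC arrays.

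Markers of other liver and blood cells moved with the comparison as well. Of 10 measured T and NK cell markers 7 were higher in macrophages, and their summed signal was 15050 and 15485 there, 1673 and 1685 in hepatocytes and 2255 and 2276 in SEC. The T cell receptor chain Cd3g stood at 10.88 and 10.98 in macrophages, was below background in hepatocytes, and was at least 10.7-fold higher in macrophages. Ccl5, a chemokine of T and NK cells, was 39.5-fold higher. Among 7 measured B and plasma cell markers 4 were higher in macrophages, with Cd79b, part of the B cell receptor, at least 9.56-fold higher. Neutrophil markers split, since S100a8, S100a9 and Mmp9 were higher in macrophages, while the other 10 of 13 were not called and granule genes such as Mpo, at 7.43 and 7.42, and Elane, at 7.42 and 7.42, read near background there. Of 10 erythroid and platelet markers 4 were higher in macrophages, with the globin Hbb-bs at 13.04 and 12.94 against 8.53 and 8.0 in hepatocytes, 26.5-fold, a gene whose near-identical copy Hbb-bt an array probe may not tell apart. Alas2, the haem synthesis enzyme of red cell precursors, was the exception, 7.55-fold higher in hepatocytes at 10.58 and 10.53. The part of these cells in the macrophage differences was not tested.

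Part of the endothelial and stellate markers were called higher in macrophages. Of 21 measured sinusoidal endothelial markers 12 were higher in macrophages and 1 in hepatocytes, and the list summed to 28619 and 29065 on the macrophage arrays, 8744 and 8803 on the hepatocyte arrays and 161137 and 165698 on the SEC arrays. The hyaluronan receptor Stab2 read 10.87 and 10.66 on the macrophage arrays against 8.42 and 8.52 in hepatocytes, 4.92-fold, beside 13.36 and 13.28 in SEC. Lyve1 read 8.96 and 9.01 against 7.96 and 7.74, 2.20-fold, beside 12.30 and 12.25 in SEC. The largest difference of that list was that of the mannose receptor Mrc1, 17.3-fold, a gene that macrophages also use. In the vascular endothelial list 7 of 15 were higher in macrophages. Cdh5, the cadherin of endothelial junctions, differed most there, at 12.02 and 11.89 in macrophages against 8.02 and 7.81 in hepatocytes, 16.4-fold, beside 12.57 and 12.62 in SEC, while the other 6 called members differed by at most 2.79-fold (Eng). Of 16 stellate cell and fibroblast markers 4 were higher in macrophages, led by Ecm1, 5.0-fold, and Dcn, 4.34-fold. Colec11 and Reln were called too, with -1.55 and -1.48, while Lrat, Des and Pdgfrb had differences of -0.06, 0.02 and -0.12 and were not. The list summed to 19488 and 18805 on the macrophage arrays and 6742 and 5747 on the hepatocyte arrays, beside 50013 and 47324 in SEC. Of the 6 measured cholangiocyte markers Sox9 was called, at least 5.16-fold higher in hepatocytes, while the keratins Krt19 and Krt7 had differences of 0.09 and -0.06. Of these 6 genes 4 lay below background on both hepatocyte arrays and 3 on both macrophage arrays. Small differences in this list therefore do not show equal expression. For 3 of 10 dendritic cell markers, Batf3, Siglech and Clec9a, macrophages were higher. In bulk RNA, fewer cells of a type and less RNA per cell cannot be told apart, and the part of these markers in the comparison was not tested.

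Monocyte genes were a mixed list: 4 of 13 were higher in macrophages and 1 in hepatocytes. Plac8 was 24.1-fold higher in macrophages, at 13.22 and 13.09, and S100a6 at least 6.13-fold. The receptor Ccr2, with which monocytes leave the marrow, read 7.77 and 7.75 in macrophages and was not called, as was Cx3cr1 at 8.03 and 7.97. Fibronectin (Fn1), which hepatocytes secrete into plasma, ran the other way, 9.0-fold higher in hepatocytes at 11.08 and 10.95.

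**Figure D2:**
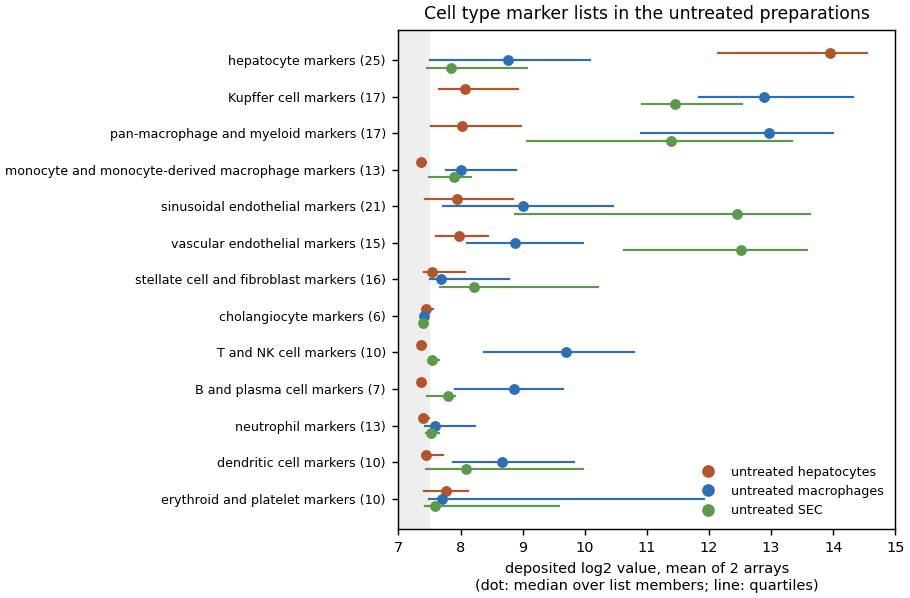
For each list of cell type markers (number of measured genes in brackets), the dot is the median and the line the quartiles of the members' mean deposited log2 values in untreated hepatocytes, macrophages and SEC; the grey band is below background. Hepatocyte markers have a median of 13.94 in hepatocytes, 8.76 in macrophages and 7.84 in SEC, and T and NK cell markers lie above background in macrophages with a median of 9.70.

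Transcription factors of each lineage were next compared, since they set up cell identity. Of 25 measured hepatocyte factors 14 were higher in hepatocytes and none in macrophages, with a median difference of 1.14. Atf5 had the largest difference, at 12.51 and 12.59 in hepatocytes against 8.13 and 8.37 in macrophages, 19.7-fold. Hnf4a, the nuclear receptor at the centre of the hepatocyte network, stood at 11.67 and 11.84 against 7.79 and 7.75, 15.8-fold (limma adjusted p = 2.66e-12). Both hepatocyte arrays of these genes lay more than 3 log2 units above both macrophage arrays. Of the FOXA factors, Foxa3 was 14.9-fold higher, at 11.53 and 11.48 against 7.62 and 7.59. Foxa1 and Foxa2 passed the test with differences of 0.96 and 0.93, under the 2-fold minimum, and were past it without hepatocyte array 2, at 1.04 and 1.08. Cebpa, a regulator of liver metabolism, behaved alike with 0.95 over all arrays and 1.03 without hepatocyte array 2. Mlxipl, the carbohydrate-responsive factor ChREBP, was 10.7-fold higher, and the bile acid receptor Nr1h4 7.73-fold. Onecut2 was 7.20-fold higher and Creb3l3, a factor of fasting lipid metabolism, 6.82-fold.

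The xenobiotic receptors were measured in hepatocytes alone: Nr1i3 (CAR) was at least 4.24-fold and Nr1i2 (PXR) at least 3.59-fold higher. Prox1 was at least 2.78-fold higher and Srebf1, a regulator of fatty acid synthesis, 2.55-fold. Tbx3, a factor of pericentral hepatocytes, was at least 2.18-fold higher. Nr2f6 and Nr5a2 were called narrowly, with differences of 1.14 and 1.05, and without hepatocyte array 1 their differences of 0.995 and 0.97 were under the 2-fold minimum. The other factors of the list were not called, with differences of 0.64 for Hhex, 0.61 for Xbp1, 0.90 for Esr1, 0.42 for Ppara, 0.29 for Rxra, 0.23 for Nfia, -0.04 for Cux2 and -0.50 for Bcl6.

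Of 26 measured macrophage factors 16 were higher in macrophages and none in hepatocytes, with a median difference of -1.38. Spi1, which encodes PU.1, stood at 9.43 and 9.43 on the macrophage arrays and 7.39 and 7.68 on the hepatocyte arrays, 3.73-fold (limma adjusted p = 1.56e-09). Klf2 had the largest difference, 16.1-fold, at 11.85 and 11.77 against 7.82 and 7.79, and is also on the list of immediate early and isolation stress genes below. Irf8, which directs monocyte and macrophage development, was 12.1-fold higher, at 11.41 and 11.28 against 7.82 and 7.69. For these 3 genes both macrophage arrays lay above both hepatocyte arrays, and Spi1 was above background on 1 hepatocyte array alone. Spic, a factor of macrophages that recycle red cell iron, was at least 9.25-fold higher and Ikzf1 at least 12.1-fold. The liver X receptor Nr1h3, known for Kupffer cell identity, was 3.85-fold higher in macrophages and was also well above background in hepatocytes, at 10.59 and 10.53. Cebpb likewise stood at 10.41 and 10.43 in hepatocytes and 12.58 and 12.58 in macrophages, 4.46-fold. Zeb2 was 6.60-fold, Irf7 6.0-fold and Irf5 4.32-fold higher.

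Among the dimmer macrophage factors Batf3 was at least 6.49-fold, Elf4 at least 4.86-fold, and Batf at least 2.21-fold higher. Tfec and Id3 were 2.79-fold and 2.27-fold higher. Klf4 was at the limit with -1.01, and was under the 2-fold minimum without hepatocyte array 2 (-0.96) or macrophage array 1 (-0.94). The factors not called had differences of -0.79 for Id1, -0.67 for Fli1, -0.40 for Egr2, -0.35 for Maf, -0.26 for Runx1, -0.20 for Rel, -0.09 for Mitf and -0.07 for Etv6, and Rxra, on both lists, is given above. Bhlhe40 had 0.46, with hepatocyte arrays at 9.40 and 10.59 that did not agree, and was called higher in hepatocytes, at 1.06, without hepatocyte array 1, whereas the difference was -0.13 without hepatocyte array 2.

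**Figure D3:**
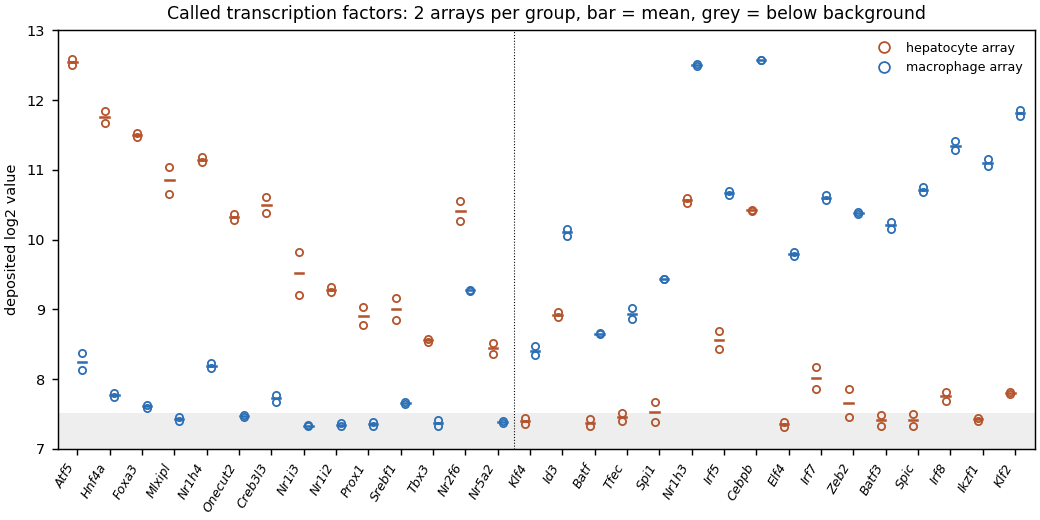
Deposited log2 value of each called transcription factor on the 2 hepatocyte and the 2 macrophage arrays (circles), with the mean of each group as a bar; the grey band is below background. The 14 hepatocyte factors are left of the dotted line and the 16 macrophage factors right of it, and the arrays of the 2 groups do not overlap for any of them.

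Promoters of the genes with the largest differences were read for short motifs of these factors, as a description of genes chosen by the direction of their difference. The windows of 300 bases, from 250 upstream of a transcription start to 50 downstream, came from RefSeq on the build GRCm38.p6 and were available for 10037 of the genes tested. The PU.1 motif GAGGAAG, on both strands, was in 13.7% of all promoters, in 20.5% (237 of 1155) of those called higher in macrophages and in 10.8% (104 of 967) of those called higher in hepatocytes. Among genes at least 16-fold higher in macrophages it was in 31.1% (23 of 74), and among those at least 16-fold higher in hepatocytes in 9.52%. The median GC content was 60% over all promoters, 50.7% and 52.3% in the hepatocyte and macrophage genes at least 16-fold higher, and its part in these shares was not tested. The HNF4 motif CAAAGTC was in 4.00% of all promoters, in 5.27% of those of hepatocyte genes and in 4.42% of those of macrophage genes. For genes at least 16-fold higher it was in 8.16% (12 of 147) in hepatocytes and 9.46% (7 of 74) in macrophages, which are few promoters. The C/EBP motif TTGCGCA was in 3.44% of all promoters, in 2.07% for hepatocyte genes and in 2.16% for macrophage genes. The AP-1 motif TGANTCA was in 5.79%, 7.34% and 5.80% in the same order, and the E-box CACGTG in 9.92%, 7.86% and 10.1%. These motifs were also searched on both strands. The TATA box TATAAA, on the sense strand 40 to 15 bases upstream, was in 1.89% of all promoters. For genes at least 16-fold higher it was in 7.48% (11 of 147) in hepatocytes and 6.76% (5 of 74) in macrophages, again few promoters. A match describes letters and not binding.

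The 4 macrophage genes with the largest differences whose window holds the PU.1 motif are shown to let the motif be seen in place. They are the complement gene C1qc, the secreted protein gene Wfdc17, the lysosomal protein gene Laptm5 and the IgG receptor gene Fcgr4. On GRCm38.p6 their windows are chr4:136892865-136893164 on the minus strand for C1qc, chr11:83703806-83704105 on the plus strand for Wfdc17, chr4:130913066-130913365 on the plus strand for Laptm5 and chr1:171018676-171018975 on the plus strand for Fcgr4. Each reads 5′ to 3′ along the gene, and the motif, in capitals, stands in all 4 as CTTCCTC, the reverse complement of GAGGAAG. It begins 194 bases upstream of the start in C1qc, 40 in Wfdc17, 39 in Laptm5 and 23 in Fcgr4. In macrophages these genes were 54.4-fold, 46.9-fold, 45.5-fold and 36.3-fold higher.
C1qc: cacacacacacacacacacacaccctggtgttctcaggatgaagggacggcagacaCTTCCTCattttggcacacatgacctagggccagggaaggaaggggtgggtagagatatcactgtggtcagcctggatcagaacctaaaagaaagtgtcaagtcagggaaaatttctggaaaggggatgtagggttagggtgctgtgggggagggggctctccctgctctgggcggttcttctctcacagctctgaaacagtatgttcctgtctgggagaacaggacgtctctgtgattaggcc
Wfdc17: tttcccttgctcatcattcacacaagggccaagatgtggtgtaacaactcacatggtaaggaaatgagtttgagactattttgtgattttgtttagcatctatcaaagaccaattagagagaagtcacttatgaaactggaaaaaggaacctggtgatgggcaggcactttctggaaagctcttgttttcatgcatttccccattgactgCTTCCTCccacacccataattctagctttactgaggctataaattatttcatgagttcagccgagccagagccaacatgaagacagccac
Laptm5: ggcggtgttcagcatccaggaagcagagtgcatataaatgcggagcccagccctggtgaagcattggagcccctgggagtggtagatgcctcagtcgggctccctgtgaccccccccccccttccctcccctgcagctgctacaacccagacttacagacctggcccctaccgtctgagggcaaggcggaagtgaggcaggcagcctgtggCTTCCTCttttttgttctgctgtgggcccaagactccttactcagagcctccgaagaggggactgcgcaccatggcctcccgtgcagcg
Fcgr4: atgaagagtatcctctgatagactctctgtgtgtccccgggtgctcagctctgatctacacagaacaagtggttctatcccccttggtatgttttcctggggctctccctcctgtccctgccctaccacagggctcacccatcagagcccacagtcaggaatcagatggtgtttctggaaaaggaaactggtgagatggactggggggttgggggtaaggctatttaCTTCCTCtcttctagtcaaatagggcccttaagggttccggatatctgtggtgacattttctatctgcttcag

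Secreted plasma proteins were among the lists with the largest hepatocyte differences. Of 23 measured plasma carrier proteins 22 were higher in hepatocytes and none in macrophages, with a median difference of 4.66. The acute phase protein Orm1 stood at 14.06 and 14.28 against 8.17 and 8.15 in macrophages, 64.4-fold, and the retinol carrier Rbp4 at 13.62 and 13.54 against 8.11 and 8.18, 43.3-fold. Azgp1 was 44.9-fold and Itih3, an inhibitor chain that binds hyaluronan, 41.7-fold higher. The exception was Selenop, the selenium carrier, with a difference of 0.46. Transferrin (Trf) was higher in hepatocytes by only 3.51-fold. It was also bright in macrophages, at 13.34 and 13.06, against 14.95 and 15.07 in hepatocytes, which is near the ceiling of the arrays.

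Of 25 measured coagulation and fibrinolysis genes 17 were higher in hepatocytes and 1 in macrophages, with a median difference of 3.71. The fibrinogen chain Fga stood at 14.92 and 15.05 against 9.93 and 10.05, 31.9-fold, and kininogen (Kng1) was 28.9-fold higher. Protein C (Proc), an anticoagulant protease, was 32.9-fold higher, and plasminogen (Plg) 29.8-fold. Factor VIII (F8), which endothelial cells make, was 2.15-fold higher in macrophages, at 9.16 and 9.16, beside 13.21 and 13.13 in SEC.

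Complement genes were divided between the cell types. Of 17 measured components made for plasma 13 were higher in hepatocytes, with a median difference of 3.87. The terminal components C8g, at 13.74 and 13.77 against 8.35 and 8.31, and C9, at 13.23 and 13.39 against 7.89 and 7.92, were 43-fold and 42.4-fold higher in hepatocytes. The lectin pathway protease Masp2 was 22-fold and the regulator Cfi 34.3-fold higher. The terminal component C6 ran the other way, 2.50-fold higher in macrophages at 12.85 and 12.92 against 11.43 and 11.70. Masp1 was also called higher in macrophages, 2.35-fold, but a second probe of Masp1 was 2.98 log2 units higher in hepatocytes, so its direction is not settled. By contrast 8 of 13 measured C1q, properdin and receptor genes were higher in macrophages and 1 in hepatocytes, with a median difference of -1.65. All C1q chains were among them: C1qb at 14.77 and 14.76 against 9.10 and 8.86, 55.3-fold, C1qc 54.4-fold and C1qa 33.6-fold. Properdin (Cfp), which stabilises the alternative pathway convertase, was 30.0-fold higher in macrophages. Cd59a, a membrane inhibitor of the terminal pore, was 2.49-fold higher in hepatocytes.

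Lipoprotein genes had a similar split. Of 21 measured members 13 were higher in hepatocytes and 3 in macrophages, with a median difference of 3.37. Apoc3, an inhibitor of triglyceride clearance, stood at 15.14 and 15.19 against 8.99 and 9.02, 71.5-fold, close to the ceiling of the arrays. Apob, the scaffold of very low density lipoprotein, was 30.5-fold and Apom 45.4-fold higher. The 3 genes higher in macrophages act on lipoproteins or cell cholesterol rather than as their building blocks. They were lipoprotein lipase (Lpl), at 13.70 and 13.77 against 8.82 and 8.86, 29.7-fold, the phospholipid transfer protein Pltp, 5.42-fold, and the cholesterol exporter Abcg1, at least 3.29-fold. Apoe was bright in both, at 14.86 and 14.83 in hepatocytes and 14.35 and 14.16 in macrophages, with a difference of 0.59 that was under 2-fold, and Apoc1 had -0.01.

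Drug-metabolising enzymes formed the next block. Of 32 measured P450 genes 26 were higher in hepatocytes and 1 in macrophages, with a median difference of 4.09. Cyp2e1, which metabolises ethanol and small nitrosamines, stood at 14.98 and 14.79 in hepatocytes and 8.77 and 8.75 in macrophages, 70.1-fold (limma adjusted p = 7.09e-14). Cyp2c70, which makes the muricholic bile acids of mice, was 74.1-fold higher, at 13.94 and 14.34, and Cyp2d9, a male-biased steroid hydroxylase, 73.8-fold. The P450 higher in macrophages was Cyp4f18, a leukotriene B4 hydroxylase of myeloid cells, at least 2.07-fold. Of 30 measured conjugation and glutathione genes 24 were higher in hepatocytes and none in macrophages, with a median difference of 2.80. Gsta3 was 49.1-fold higher, at 14.82 and 14.65 against 9.07 and 9.17, the glucuronosyltransferase Ugt2b36 42.7-fold and the glycine conjugating enzyme Glyat 36-fold. Members not called included Nqo1, with 0.21, and the epoxide hydrolase Ephx1, with 0.28.

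Nitrogen disposal was almost wholly on the hepatocyte side. Of 29 measured genes of the urea cycle and amino acid breakdown 28 were higher in hepatocytes, with a median difference of 4.26, and Tat was not called. Cps1, which starts the urea cycle, stood at 13.55 and 13.43 against 7.63 and 7.62, 58.2-fold, and Ass1, a later enzyme of the cycle, at 14.31 and 14.43 against 8.81 and 8.99, 44.4-fold. Arg1, which releases urea, was 61.1-fold higher in hepatocytes, at 14.06 and 14.12, and read 8.18 and 8.14 in macrophages. Fah, the last enzyme of tyrosine breakdown, was 56.5-fold higher. Of 17 measured gluconeogenesis and glycogen genes 16 were higher in hepatocytes and none in macrophages, with a median difference of 2.61. Glucose 6-phosphatase (G6pc) was 35.7-fold higher, with hepatocyte arrays at 12.30 and 13.39 that differed by over 2-fold from each other. Fbp1 stood at 12.54 and 12.50 against 7.79 and 7.71, 27.3-fold, the glucagon receptor Gcgr was 8.88-fold higher, and Gbe1 was not called, with 0.32.

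Bile acid synthesis and transport was higher in hepatocytes in 16 of 20 measured genes and in none in macrophages, with a median difference of 2.91. Slc27a5, the bile acid ligase of the liver, stood at 13.54 and 13.47 against 7.67 and 7.53, 59.9-fold. Cyp8b1, which makes cholic acid, was 46.7-fold higher, Cyp7b1 46.7-fold, and Cyp7a1, the rate-limiting enzyme of bile acid synthesis, at least 8.60-fold. The uptake carrier Slco1b2 was 43.5-fold higher, whereas the carrier Slc10a1 had 0.96 and was not called. Of 21 measured drug and solute transporters 14 were higher in hepatocytes and 1 in macrophages, with a median difference of 2.0. Slc47a1, an exporter of organic cations, was 22.1-fold and the amino acid carrier Slc38a4 14.4-fold higher. The exporter Abcc3 was 3.35-fold higher in macrophages, at 11.09 and 11.31 against 9.65 and 9.27.

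Lipid synthesis and oxidation were both higher in hepatocytes. Of 25 measured cholesterol and fatty acid synthesis genes 20 were called and none was higher in macrophages, with a median difference of 2.31. Dgat2, which makes triglyceride, was 25.1-fold higher, at 12.35 and 12.26 against 7.62 and 7.69, and Scd1, a fatty acid desaturase, 11.6-fold, at 14.80 and 14.76 against 11.25 and 11.25. Fasn, the fatty acid synthase, had 0.70 and was not called. Of 21 measured fatty acid oxidation and ketogenesis genes 15 were higher in hepatocytes and none in macrophages, with a median difference of 1.90. The thiolases Acaa1b of peroxisomes and Acaa2 of mitochondria were 59-fold and 16.6-fold higher. The probes of Cpt1a and Fabp1, which are known as abundant liver transcripts, read 7.30 and 7.37 and 7.55 and 7.52 in hepatocytes, at or near background, and were not called. Oxidative phosphorylation differed less: 8 of 30 measured subunit genes were higher in hepatocytes, led by Cyc1, 4.06-fold, and the median difference was 0.71.

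Epithelial structure and endocrine response were also on the hepatocyte side. Of 23 measured junction and keratin genes 15 were higher in hepatocytes and none in macrophages, with a median difference of 1.69. The gap junction gene Gjb2 stood at 12.40 and 12.28 against 7.58 and 7.52, 27.7-fold, the keratin Krt8 was 14.1-fold and its partner Krt18 at least 9.15-fold higher. Of 23 measured genes of the growth hormone, insulin and growth factor axis 14 were higher in hepatocytes and none in macrophages, with a median difference of 1.23. The growth hormone receptor Ghr stood at 11.94 and 11.81 against 7.73 and 7.69, 17.9-fold, and Igfals, which carries IGF1 in plasma, was 23.3-fold higher. Hgfac, the activator of hepatocyte growth factor, was 27.2-fold and the EGF receptor Egfr 16.7-fold higher. Of 15 measured genes known as male-biased in mouse liver 13 were higher in hepatocytes, among them Nudt7, 54.9-fold, and Keg1, 47.7-fold, with a median difference of 4.74.

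**Figure D4:**
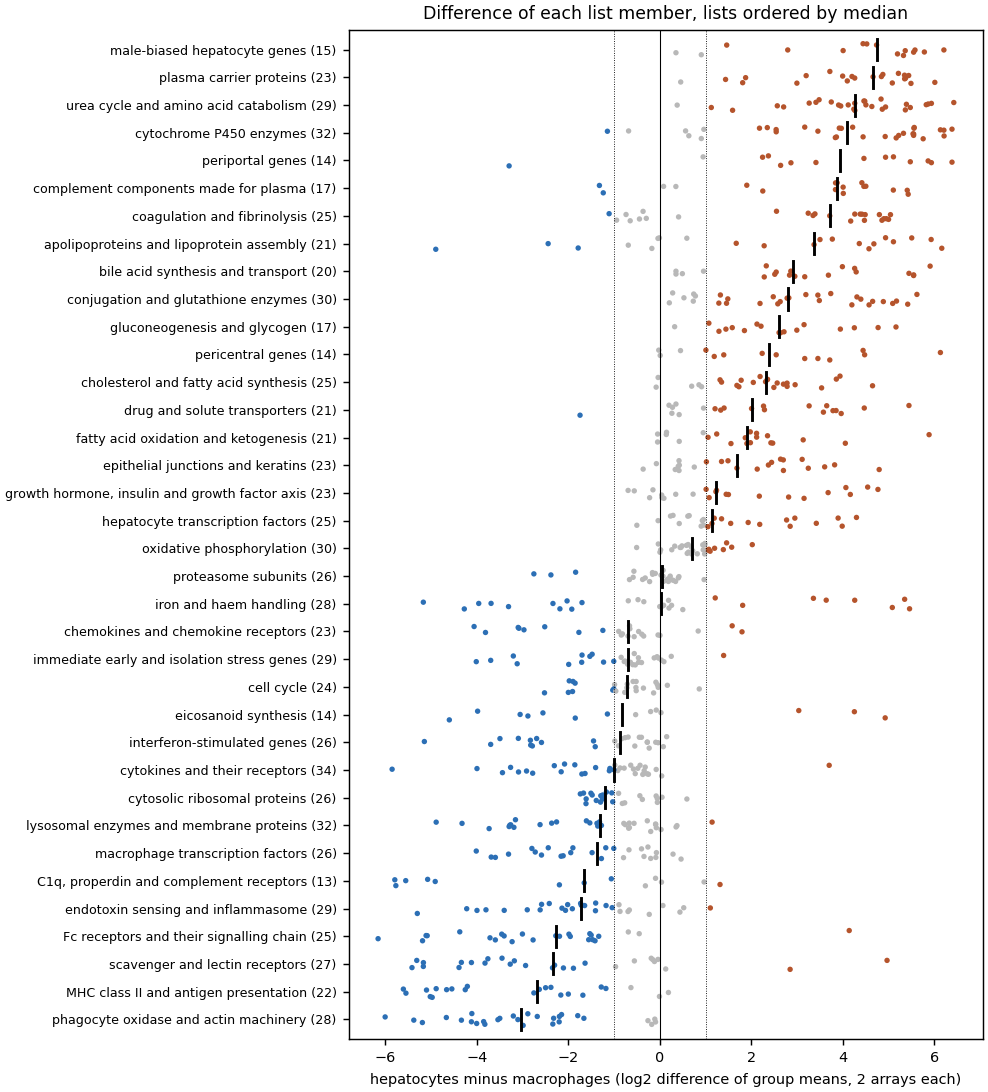
Each point is a measured member of a gene list (number measured in brackets), placed by the log2 difference of the means of the 2 hepatocyte and the 2 macrophage arrays; red-brown points were called higher in hepatocytes, blue in macrophages, grey not called. Bars are list medians, from 4.74 for male-biased hepatocyte genes to -3.04 for phagocyte oxidase and actin machinery, and the dotted lines mark 2-fold.

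Uptake receptors were mostly higher in macrophages. Of 27 measured scavenger and lectin receptors 18 were higher in macrophages and 2 in hepatocytes, with a median difference of -2.34. The galactose-binding lectin Lgals3 stood at 14.04 and 13.87 against 8.72 and 8.56 in hepatocytes, 39.7-fold, and Axl, a receptor for dying cells, at 13.41 and 13.60 against 8.43 and 8.26, 35.9-fold. The 2 receptors higher in hepatocytes form the asialoglycoprotein receptor, which clears desialylated plasma proteins: Asgr1, 31.2-fold, and Asgr2, 7.19-fold. Of 25 measured Fc receptors and signalling genes 22 were higher in macrophages and 1 in hepatocytes, with a median difference of -2.27. The IgG receptors Fcgr4, at 13.72 and 13.69 against 8.58 and 8.46, and Fcgr3 were 36.3-fold and 20.7-fold higher in macrophages. Pigr, which carries IgA into bile, was 17.6-fold higher in hepatocytes at 11.88 and 12.05.

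Sensors of bacterial products followed. Of 29 measured endotoxin sensing and inflammasome genes 20 were higher in macrophages and 1 in hepatocytes, with a median difference of -1.72. Ly86, a partner of the receptor CD180, stood at 13.24 and 13.08 against 7.90 and 7.82, 39.3-fold. Caspase 1 (Casp1), which matures interleukin 1, was 18.6-fold higher, and Il1b, its substrate, 15.9-fold, at 11.56 and 11.52. The endotoxin co-receptor Cd14 was 10.6-fold higher in macrophages, and Tlr4 at least 4.24-fold. The 1 gene higher in hepatocytes was Lbp, the plasma protein that binds endotoxin, with 1.10, and without hepatocyte array 2 its difference of 0.98 was under the 2-fold minimum.

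Antigen presentation by class II molecules was higher in macrophages in 19 of 22 measured genes and in hepatocytes in none, with a median difference of -2.69. H2-Ab1 stood at 14.46 and 14.75 against 9.0 and 9.0, 48.6-fold, and the invariant chain Cd74 at 14.76 and 14.85 against 9.87 and 9.55, 34.2-fold. The peptide loading chain H2-DMa was 32.3-fold higher and the co-stimulator Cd86 19-fold. The 3 not called were Cd80, with -0.63, B2m, with 0.19, and Tapbp, with -0.01, of which the last 2 serve class I molecules. Among 26 measured proteasome subunits the 3 called were the immunoproteasome subunits Psmb9, 6.73-fold, Psmb8, 5.20-fold, and Psmb10, 3.58-fold, all higher in macrophages. This count is near the share over all genes tested, of which 11.5% were called higher in macrophages. The median of the proteasome list was 0.05.

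The oxidase and actin machinery of phagocytes had the lowest median of the functional lists, -3.04, with 24 of 28 measured genes higher in macrophages and none in hepatocytes. Coro1a, an actin regulator of leukocytes, stood at 13.03 and 13.16 against 7.83 and 7.61, 41.5-fold, and Cyba, a membrane subunit of the oxidase, at 13.31 and 13.42 against 8.18 and 8.17, 36.4-fold. Cybb, the other membrane subunit, read 7.57 and 7.49 in macrophages and was not called, with -0.18. Of 32 measured lysosomal genes 17 were higher in macrophages and 1 in hepatocytes, with a median difference of -1.30. Cathepsin S (Ctss), which trims the invariant chain, stood at 12.90 and 13.03 against 8.11 and 8.05, 29.6-fold, and legumain (Lgmn) was 20.0-fold higher. Smpd1, an acid sphingomyelinase, was 2.21-fold higher in hepatocytes.

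Secreted signals were more mixed. Of 23 measured chemokine genes 8 were higher in macrophages and 2 in hepatocytes, with a median difference of -0.69. Cxcl13, which attracts B cells, stood at 11.63 and 11.68 against 7.70 and 7.49, 16.6-fold, and Ccl24, which attracts eosinophils, was 14-fold higher in macrophages. The neutrophil attractant Cxcl1 was 3.47-fold and Ccl9 2.99-fold higher in hepatocytes. Of 34 measured cytokine and receptor genes 17 were higher in macrophages and 1 in hepatocytes, with a median difference of -0.99. Csf2ra, a receptor chain for GM-CSF, was 10.8-fold higher in macrophages, and Il1rap, a shared chain of interleukin 1 receptors, 13-fold higher in hepatocytes at 11.24 and 11.19. For eicosanoids 7 of 14 measured genes were higher in macrophages and 3 in hepatocytes, with a median difference of -0.84. Alox5ap, which hands arachidonic acid to 5-lipoxygenase, was 24.2-fold and thromboxane synthase (Tbxas1) 15.8-fold higher in macrophages. The 3 higher in hepatocytes were Cyp4f14, 30.4-fold, the epoxide hydrolase Ephx2, 19-fold, and Pla2g12b, at least 7.96-fold.

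Of 26 measured interferon-stimulated genes 11 were higher in macrophages and none in hepatocytes, with a median difference of -0.87. Ifi27l2a was 35.4-fold and the GTPase Gbp3 12.9-fold higher. The interferon list summed to 79841 and 77813 on the macrophage arrays, beside 96674 and 93462 on the SEC arrays. Of 26 measured ribosomal protein genes 16 were higher in macrophages and none in hepatocytes, with a median difference of -1.20. Rps19 differed most, at 13.74 and 13.75 against 11.96 and 12.07, 3.33-fold. Rpl4 had 0.05, the highest difference of the list was 0.59, and 2 members lay below background on both hepatocyte arrays. Of 24 measured cell cycle genes 8 were higher in macrophages, led by the cyclin Ccnd2, 5.73-fold, and the replication helicase subunit Mcm6, 4.0-fold. Top2a had -0.52 and was not called. The cell cycle list summed to 14744 and 14666 on the macrophage arrays, beside 20298 and 20591 on the SEC arrays. Of 29 measured immediate early and isolation stress genes 11 were higher in macrophages and 1 in hepatocytes, with a median difference of -0.70. The largest difference of this list was that of Klf2, given above among the macrophage factors. Fos, a factor induced within minutes of stimulation, stood at 11.19 and 11.10 in macrophages, 7.49 and 7.41 in hepatocytes, below background, and was at least 12.5-fold higher. Klf6 was 8.67-fold higher in macrophages, at 11.36 and 11.52, whereas the early gene Egr1 was not called, with -0.46. The heat shock gene Hspb1 was 2.63-fold higher in hepatocytes.

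Iron and haem genes were divided between the cell types. Of 28 measured members 8 were higher in hepatocytes and 10 in macrophages, with a median difference of 0.02, or -0.02 without hepatocyte array 2. Hepcidin (Hamp), the hormone that makes cells withdraw the iron exporter, stood at 14.79 and 14.89 in hepatocytes and 9.33 and 9.44 in macrophages, 43.9-fold. The iron exporter ferroportin (Slc40a1) read 14.89 and 14.72 on the macrophage arrays and 11.11 and 11.13 on the hepatocyte arrays, 12.9-fold. Hepatocyte arrays were high for the hormone, and macrophage arrays for its target. Haptoglobin (Hp), which binds free haemoglobin, was 40.8-fold higher in hepatocytes, and Cd163, the receptor for that complex, 35.9-fold higher in macrophages, at 13.62 and 13.48 against 8.47 and 8.29. Haemopexin (Hpx), which binds free haem, was 33.8-fold higher in hepatocytes, at 15.19 and 15.14. Haem oxygenase (Hmox1), which opens the haem ring, was 19.3-fold higher in macrophages, at 11.91 and 11.77, and Slc11a1, which moves iron out of the phagosome, 15.5-fold. The ferritin chains Fth1 and Ftl1 differed little, by 0.05 and 0.26.

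Isoenzymes, which catalyse the same step in different cell types, were compared in pairs, together with some related transporters, binding proteins and proteases. Of 13 pairs with both genes measured, 5 had the liver form called higher in hepatocytes and the other form called higher in macrophages. For pyruvate kinase, Pklr was at 8.34 and 8.53 in hepatocytes and below background in macrophages, at least 2.0-fold, and Pkm was 8.54-fold higher in macrophages, at 10.71 and 10.73 against 7.66 and 7.59. Without hepatocyte array 2 the difference of Pklr, 0.97, was under the 2-fold minimum. Among glucose transporters, Slc2a2 was 15.4-fold higher in hepatocytes, Slc2a3 at least 2.91-fold higher in macrophages, and Slc2a1 not called, with -0.32. Glycogen phosphorylase was divided into Pygl, 2.45-fold higher in hepatocytes, and Pygb, 5.78-fold higher in macrophages at 10.07 and 10.12. Arginase was divided into Arg1 and Arg2, the latter at least 2.46-fold higher in macrophages. The leukotriene hydroxylases Cyp4f14 and Cyp4f18 were the fifth pair.

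In the other 8 pairs at least 1 gene was not called. G6pc3, the widely expressed glucose 6-phosphatase, had -0.22 beside the hepatocyte form G6pc. The glycogen synthase Gys2 was at least 4.39-fold higher in hepatocytes, while Gys1 had -0.01. Pfkl had 0.57, and Pfkp, with -1.07 higher in macrophages, was under the 2-fold minimum without macrophage array 2, at -0.98. Of the cathepsins, Ctsb had -0.56 and Ctss was higher in macrophages. The cytochrome oxidase subunit Cox6a2 was at least 2.63-fold higher in macrophages, and Cox6a1 had 0.63. Fabp5, paired with Fabp1, was called higher in hepatocytes with 1.42, from hepatocyte arrays at 8.22 and 9.45, and had 0.80 without hepatocyte array 2 and 2.03 without hepatocyte array 1. The difference of Cpt1b was 0.03. Outside these pairs the hexokinase of leukocytes, Hk3, was at least 17-fold higher in macrophages, while Hk1 had -0.56, and Aldoa was 3.37-fold higher there.

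Ligands and receptors were set side by side in the same way. Of 20 pairs with both genes measured, 3 had the ligand called higher in hepatocytes and the partner in macrophages: Hp with Cd163, Hamp with Slc40a1 and Lbp with Cd14. In 2 pairs both genes were higher in macrophages. Tgfb1 was 4.94-fold and its receptor Tgfbr2 6.86-fold higher, and Cd47, the signal against engulfment, 5.82-fold and its receptor Sirpa 34.4-fold. The remaining 15 pairs had at least 1 gene not called. Csf1 and Il34, the ligands of CSF1R, read 7.41 and 7.42 and 7.37 and 7.40 in hepatocytes, below background, with differences of -0.34 and -0.08. Complement C5 (Hc) was 14.7-fold higher in hepatocytes, and its receptor C5ar1 had 0.04. Mertk was 10.9-fold higher in macrophages, while its ligands Gas6 and Pros1 had -0.21 and -0.44.

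Several cytokine ligands were dim in both cell types. Il6, Tnf, Osm and Il10 read 7.73 and 7.73, 8.11 and 8.10, 7.63 and 7.65 and 7.94 and 7.93 in macrophages, and their differences of -0.37, -0.78, -0.28 and -0.54 were under 2-fold. Il6ra was 2.13-fold higher in macrophages, at 9.42 and 9.38, and Il10ra at least 6.83-fold. Il18bp, which neutralises interleukin 18, was 4.45-fold higher in macrophages, while Il18 had -0.87. Receptors for the other signals differed by under 2-fold, with -0.58 for Tnfrsf1a, -0.25 for Osmr, 0.19 for the transferrin receptor Tfrc and -0.69 for the haemopexin receptor Lrp1. Itgam, a chain of the fibrinogen-binding integrin, had -0.09 beside Fgg, 19.2-fold higher in hepatocytes. Cxcl12 had 0.84, which reached 1.01 without hepatocyte array 2, and its receptor Cxcr4 had -0.82. Bmp6, which induces hepcidin, had -0.35, its co-receptor Hjv 0.50, and hepatocyte growth factor (Hgf) -0.69.

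The 2 hepatocyte arrays differed from each other in a part of the genes of liver zones, and more widely in some genes outside these. Pericentral hepatocytes, near the draining vein, and periportal ones, near the incoming blood, carry different enzymes. All 14 measured pericentral genes read higher on array 1, with a median difference between the arrays of 0.44, while 49.0% of all genes tested read higher on array 1. The largest were Cyp1a2, at 12.28 and 11.54 on arrays 1 and 2, Cyp2c29 at 11.30 and 10.55 and Aldh1a1 at 12.75 and 12.06. Glul, Tbx3 and Cyp2e1 differed little, by 0.07, 0.04 and 0.19. Of the 14 measured periportal genes 4 read higher on array 1, with a median of -0.16. Histidine ammonia-lyase (Hal) was at 12.32 and 12.86, and Pck1, which starts gluconeogenesis, at 9.75 and 10.41. Arg1, Ass1 and Cps1 differed little, by -0.06, -0.13 and 0.12. With 1 array on each side this is a description without a test. Each list was called higher in hepatocytes against macrophages for most of its members: 11 of 14 pericentral genes, with a median of 2.39, and 12 of 14 periportal genes, with a median of 3.94. Ctsc, a cathepsin on the periportal list, was 9.80-fold higher in macrophages. Among 8034 genes above background in hepatocytes, without predicted models and pseudogenes, 8 differed by over 2-fold between the hepatocyte arrays. They were on neither zonal list and included Slc25a25, the largest at 9.70 and 11.28, G6pc, Cyp3a11, Fabp5 and Bhlhe40. Of all 12473 genes tested no gene did between the macrophage arrays. Of 32 measured P450 genes, some of them zonal, 24 read higher on hepatocyte array 1, with a median difference between the arrays of 0.19.

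**Figure D5:**
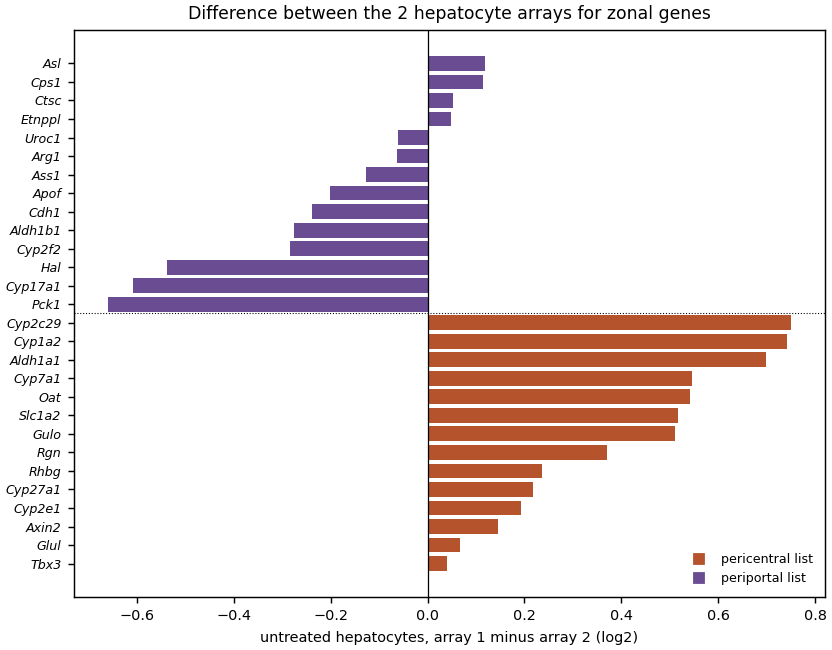
Bars give the log2 value on hepatocyte array 1 minus that on hepatocyte array 2 for 14 pericentral (red-brown) and 14 periportal (purple) genes. All pericentral bars point to array 1, up to 0.75 for Cyp2c29, and 10 of 14 periportal bars to array 2, down to -0.66 for Pck1.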

How the data were processed

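Per the labels, total RNA was labelled for Illumina bead arrays. The authors deposited log2 values for 12 arrays; the submitters' processing notes name lumi, while neither its version nor the transform was found in the sources used here. A second table of 12 columns carries no name that matches a sample and was not used. Of 45281 probes, 34885 had 1 current gene symbol (34807 through the Entrez ID, 11 through the accession, 67 by the platform's symbol), 18 had several and 10378 none here. A probe was kept if both arrays of any of the 6 groups lay above background, 20088 with a symbol, and the brightest stood for its gene. A limma fit of 6 group means over 12 arrays (limma 3.58.1, R 4.3.3, 6 residual degrees of freedom) gave two-sided p-values with Benjamini-Hochberg adjustment, tested on simulated data first. Folds given as "at least" set the brighter group's mean against the background threshold or the dim probe's own value, whichever was higher. All members and lists were chosen with earlier results of these data known.

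Named genes were the 15 largest called differences in each direction among genes above background on all 4 arrays, without predicted gene models, and the 15 brightest called genes in each direction that were below background in the other cell type. To these were added up to 5 called members of each list, up to 3 members against a list's majority, both transcription factor lists, the pairs and 9 defining markers. Other members named as not called, and the genes named for probes that disagree or for the hepatocyte arrays, were chosen after their values were seen. Promoters and gene names came from RefSeq tables. No slide, scan or extraction batch is given in the sources used here, so none was tested.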

Additional observations from a re-analysis of the deposited data

How the results depend on the processing

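The counts of genes higher in hepatocytes (1204) and in macrophages (1440) were identical when the fit used only the 4 arrays or array weights. They were also identical with no filter on dim probes, a filter on the 2 groups alone, or a trended and robust spread. Array weights, the 4 arrays alone and the trended spread leave every difference unchanged by construction. With only the 4 arrays the limma adjusted p was larger for Gnmt, at 2.64e-08, for Hnf4a, at 8.18e-08, and for Spi1, at 7.31e-06. Leaving out 1 array in turn gave 1209 to 1214 and 1437 to 1457, and 7192 to 7749 genes without a fold minimum. Subtracting each array's background before the logarithm gave 2675 and 3011 genes, and moved the median of all genes from -0.04 to 0.14; by its construction it stretches the low end of the scale. Cyclic loess gave 1355 and 1249, which moved the share of calls higher in hepatocytes from 45.5% to 52.0%, and the mean of all probes of a gene 1064 and 1139. A test against a 2-fold difference, limma's treat, gave 1010 and 1158. With the replicate number as a block the counts were 1204, 1440 and 7951. No label pairs arrays by that number, and the deviations of same-numbered hepatocyte and macrophage arrays correlated with r = 0.01 across genes.

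Under the mean of probes Masp1 turned to 0.62, higher in hepatocytes. The same setting took Il6ra to -0.57, Klf4 to -0.46, Nr2f6 to 0.95, Nr5a2 to 0.76, Pfkp to -0.74 and Pklr to 0.99, all under 2-fold, as were Clec4g, Clec9a, Cyp4f18, F8, Reln, Robo4, Smpd1, Tbx3 and Zeb2; by its construction the mean takes in probes that differ less. Cyclic loess took Il6ra, Klf4 and Pfkp to -0.98, -0.93 and -0.99 and brought Cebpa, Cxcl12 and Foxa1 to 1.06, 1.09 and 1.04. In 4828 of 4910 repeats of a named gene's difference the call was that reported, and for called genes the direction too. For genes not called, a change of sign within the replicate spread was counted among these repeats, as for Bhlhe40 without hepatocyte array 2. The medians of the 49 lists moved by more than the replicate spread in 159 of 686 repeats: for 47 lists with background subtracted, 40 with cyclic loess and 32 with the mean of probes. Values near the floor of the scale limit what dim genes can show.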
